A study of Zea mays with 12 samples.

Results

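Transcript levels are described for 3 genes of the maize endosperm that are not zeins but are required for normal protein bodies and a hard, glassy kernel. They are fl1 (floury1, GRMZM2G094532), o1 (opaque1, GRMZM2G449909) and o10 (opaque10, GRMZM2G346263), chosen by identifier from 39448 gene models. Each has 1 entry in the value table. The question is whether their transcripts follow the transcription factor O2 (opaque2) or PBF (the prolamin-box binding factor), both of which activate zein genes. RNA was sequenced from endosperm of field-grown kernels taken 16 days after pollination. The kernels came from wild type (WT), an o2 mutant (o2), a line carrying an RNA interference construct against Pbf (PbfRNAi), and the line combining both (PbfRNAi;o2, the combined line). Each had 3 biological replicates, giving 12 libraries. Which o2 allele, which inbred background, and which promoter and how many events of the construct were used, the sources used here do not give.

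Zeins are made on the rough endoplasmic reticulum (ER) of starchy endosperm cells and accumulate inside it as protein bodies, with gamma-zeins at the rim and alpha-zeins in the core. FL1 is an ER membrane protein of the protein body that binds an alpha-zein and places it within the body. O10 is an endosperm protein of the ER that places certain zeins in a ring between rim and core, and O1 is a myosin XI, an actin-based motor that acts on ER movement and shape. Loss of any of the 3 gives an opaque or floury kernel.

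The values are FPKM, fragments per kilobase of transcript scaled to the mapped fragments of a library, so that levels of different genes can be set side by side. The FPKM sum of a library ran from 430405 to 519817, 14904 to 16413 models stood at FPKM 1 or more, and the read depth is unknown. The o2 transcript was at 204 ± 22.01 (SD, n = 3) in WT, 119 ± 19.3 in PbfRNAi, 0.467 ± 0.268 in o2 and 0.462 ± 0.297 in the combined line. That of pbf1 (GRMZM2G146283) was at 46.6 ± 9.09 in PbfRNAi and 59.5 ± 4.97 in the combined line, against 103 ± 6.41 in WT and 293 ± 45.9 in o2, so this model was lower in the interference line but still present. Each single genotype also differed from WT in the other regulator. The pbf1 transcript rose in o2 (log2 change 1.48, limma adjusted p = 4.8e-05), where 48.6% of tested genes rose. The o2 transcript fell in PbfRNAi (−0.78, limma adjusted p = 0.0087), where 5.16% fell. The genotypes therefore do not fully separate O2 from PBF. A second model named pbf1, GRMZM2G146267, was at 12.1 ± 0.588 in WT and 12.05 ± 1.72 in PbfRNAi (limma adjusted p = 0.94). The zein list, which marks starchy endosperm, summed to 112854 to 157196 in the WT libraries, and the green tissue markers to at most 0.394 in any library. The embryo markers summed to 519 to 577 in WT, with lec1 and wus1 at 0, and to 452 to 875 in PbfRNAi. Replicates of the same number deviated together across genes, with correlations from 0.180 to 0.501 in all 18 pairs. Pairs of replicate 2 with replicate 3 were also all positive (0.137 to 0.313), so these values set only replicate 1 apart.

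None of the 3 transcripts was lost in any genotype, and no lower value on the FPKM scale passed the test in any comparison. The o1 transcript rose without O2, by 1.64-fold in o2 and 1.51-fold in the combined line. The o10 transcript was 1.35-fold and 1.23-fold higher in the same genotypes with no overlap of the libraries, an order that 56.6% and 60.6% of tested genes shared. Neither difference passed the test in the main fit, while some other fits given below called them. With the replicate number as a block, that in o2 passed (limma adjusted p = 0.023). The fl1 transcript had means between 30.2 and 37.8 FPKM in all 4 genotypes. Scaled to the typical gene and fitted with that block, it was lower than WT in o2 (−0.44, log2), PbfRNAi (−0.34) and the combined line (−0.36), with limma adjusted p from 0.0019 to 0.0048. In that fit 12.7%, 14.7% and 21.3% of tested genes were lower. Without the block none of these fl1 differences passed the test (limma adjusted p = 0.34, 0.46 and 0.36). The typical gene of the table also stood higher than in WT in each mutant genotype. Its median log2 change over the 17058 tested genes was 0.41 in o2, 0.16 in PbfRNAi and 0.48 in the combined line. After median-of-ratios scaling, which removes such a shift, no rise of the 3 genes against WT passed the test, where 8.85%, 11.3% and 19.8% of tested genes rose. On the FPKM scale 2.63% of tested genes fell in o2, 5.16% in PbfRNAi and 4.75% in the combined line against WT. The combined line was lower than o2 in 7.84% and lower than PbfRNAi in 6% of genes, and o2 was lower than PbfRNAi in 9.97%.

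**Figure D1:**
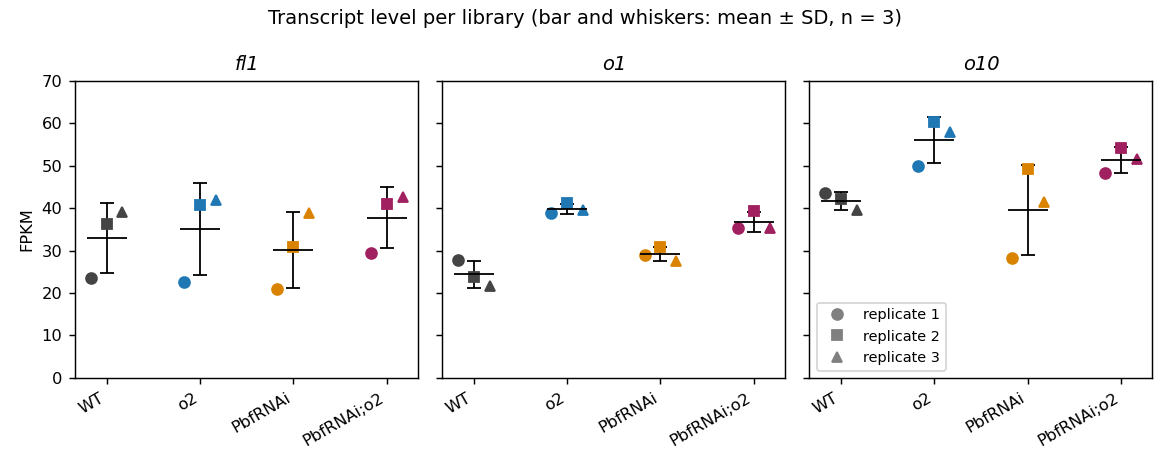
FPKM of fl1, o1 and o10 in each of the 12 libraries by genotype, with marker shapes for the replicate number and the mean ± SD (n = 3) in black. The 3 o1 values of o2 lie above all WT values, and the circle of replicate 1 is the lowest fl1 value in every genotype.

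The motor gene o1 stood at FPKM 27.8, 23.8 and 21.6 in WT replicates 1 to 3 and at 38.8, 41.1 and 39.6 in o2. It stood at 29.0, 30.9 and 27.5 in PbfRNAi and at 35.3, 39.4 and 35.4 in the combined line. The o2 and combined-line libraries were all above those of WT and of PbfRNAi, and overlapped each other. Of tested genes 56.6% showed this order for o2 and 60.6% for the combined line against WT, and 41.7% and 46.6% for the same genotypes against PbfRNAi. PbfRNAi overlapped WT only through WT replicate 1, the highest WT library. The order of the means was therefore o2 (39.9 ± 1.18, SD, n = 3), the combined line (36.7 ± 2.34), PbfRNAi (29.1 ± 1.68) and WT (24.4 ± 3.15), with no test passed between the first pair or between the last pair.

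On the log2(FPKM + 1) scale o1 rose by 0.69 ± 0.11 (SE) in o2 against WT (limma adjusted p = 0.00046) and by 0.58 ± 0.11 in the combined line against WT (limma adjusted p = 0.00075). It was higher in o2 than in PbfRNAi by 0.44 (adjusted p = 0.0067, limma) and higher in the combined line than in PbfRNAi by 0.32 (adjusted p = 0.030, limma). The last call was lost when PbfRNAi replicate 1 (adjusted p = 0.055), PbfRNAi replicate 3 (0.097), combined-line replicate 2 (0.11) or combined-line replicate 3 (0.054) was left out, or when limma was fitted to those genotypes alone (0.052). These calls are common in the table: 48.6% of tested genes rose in o2, 55.4% in the combined line, 34.8% were higher in o2 than in PbfRNAi, and 38.9% were higher in the combined line than in PbfRNAi. The o1 change in o2 was larger than that of 78.0% of tested genes, and in the combined line larger than that of 58.2%. In bulk tissue a higher level per cell and a larger share of the cells that express a gene cannot be told apart.

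PbfRNAi against WT gave o1 a log2 difference of 0.25 with a 95% interval of 0.02 to 0.49 and a limma adjusted p of 0.12, where 18.2% of tested genes rose. The difference was 0.35 and passed the test without WT replicate 1 (limma adjusted p = 0.034) and, as 0.35, without the 4 replicate 1 libraries (limma adjusted p = 0.0083). In the o2 background the construct made a difference of −0.12 (95% interval −0.35 to 0.12, limma adjusted p = 0.50). The interaction, what the combined line shows beyond both single effects added up, was −0.37 (95% interval −0.71 to −0.04, limma adjusted p = 0.16), and −0.46 without the 4 replicate 1 libraries (limma adjusted p = 0.014). Over all tested genes the interaction was called in 9.32%, 5.49% on the lower side.

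The ring-forming gene o10 was the most abundant of the 3 in the mean of every genotype, at 43.5, 42.1 and 39.5 FPKM in the WT libraries. It stood at 50.1, 60.3 and 58.0 in o2 and at 48.3, 54.3 and 51.6 in the combined line. PbfRNAi gave 28.2, 49.3 and 41.4, the widest spread, with replicate 1 the lowest of all 12 libraries. The o2 and combined-line libraries lay above every WT library, and the o2 libraries above every PbfRNAi library, orders as common as given for o1. The order of the means was o2 (56.1 ± 5.39, SD, n = 3), the combined line (51.4 ± 2.99), WT (41.7 ± 2.06) and PbfRNAi (39.6 ± 10.7), and no neighbours in that order passed the test.

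The o10 difference of o2 from WT was 0.42 ± 0.17 (log2, SE) with a limma adjusted p of 0.053, at the 50.4th percentile of the tested genes. With the replicate number as a block the limma adjusted p was 0.023, where 56.8% of tested genes rose. It was 0.00060 for a difference of 0.53 without the 4 replicate 1 libraries. Leaving out o2 replicate 1 (0.044), PbfRNAi replicate 1 (0.0081) or PbfRNAi replicate 2 (0.029), or fitting limma to o2 and WT alone (0.015), also brought the adjusted p under the threshold. The combined line differed from WT by 0.29 (95% interval −0.07 to 0.66, limma adjusted p = 0.14), by 0.37 without the 4 replicate 1 libraries (limma adjusted p = 0.0044), and with adjusted p = 0.028 in a limma fit to both genotypes alone and 0.034 without PbfRNAi replicate 1.

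Between the single genotypes o10 was higher in o2 than in PbfRNAi by 0.52 (limma adjusted p = 0.023). That call was lost without PbfRNAi replicate 1, where the difference was 0.30 (limma adjusted p = 0.064), without o2 replicate 2 (0.084) or 3 (0.071), and in a fit to both genotypes alone (0.069). PbfRNAi against WT gave −0.11 (95% interval −0.47 to 0.26, limma adjusted p = 0.70), and 0.11 with PbfRNAi replicate 1 left out. The combined line differed from PbfRNAi by 0.40 (limma adjusted p = 0.067, with the replicate block 0.030, where 46.6% of tested genes rose) and, without PbfRNAi replicate 2, by 0.57 (limma adjusted p = 0.016). It differed from o2 by −0.12 (limma adjusted p = 0.66), and the interaction was −0.02 (95% interval −0.53 to 0.50, limma adjusted p = 0.98).

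The protein-body membrane gene fl1 stood at 23.6, 36.3 and 39.1 FPKM in WT, 22.5, 40.7 and 41.9 in o2, 20.9, 30.9 and 38.8 in PbfRNAi, and 29.5, 41.0 and 42.8 in the combined line. The 4 genotypes overlapped in every pairing. Replicate 1 was the lowest library in each, by a log2 difference from the mean of replicates 2 and 3 of −0.68 in WT, −0.74 in PbfRNAi, −0.88 in o2 and −0.50 in the combined line. The same difference lay between −0.09 and 0.29 for o1, and between −0.68 and 0.09 for o10. The order of the fl1 means was the combined line (37.8 ± 7.18, SD, n = 3), o2 (35.0 ± 10.9), WT (33.0 ± 8.28) and PbfRNAi (30.2 ± 8.996), with no neighbours differing beyond their spread.

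Against WT the fl1 log2 difference was 0.06 in o2 (95% interval −0.56 to 0.69, limma adjusted p = 0.87), −0.13 in PbfRNAi (−0.76 to 0.49, adjusted p = 0.78) and 0.20 in the combined line (−0.42 to 0.83, adjusted p = 0.56). These intervals leave room for a change of either sign. The value in o2 was larger than that of 17.8% of tested genes, and those in PbfRNAi and the combined line larger than that of 18.0% and 28.1%. The combined line differed from PbfRNAi by 0.34 (limma adjusted p = 0.35), which passed the test with the replicate block (limma adjusted p = 0.017) and, as 0.27, without the 4 replicate 1 libraries (limma adjusted p = 0.044). The remaining differences were 0.14 between the combined line and o2 (limma adjusted p = 0.78) and 0.20 between o2 and PbfRNAi (limma adjusted p = 0.59), and the interaction was 0.27 (limma adjusted p = 0.73).

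**Figure D2:**
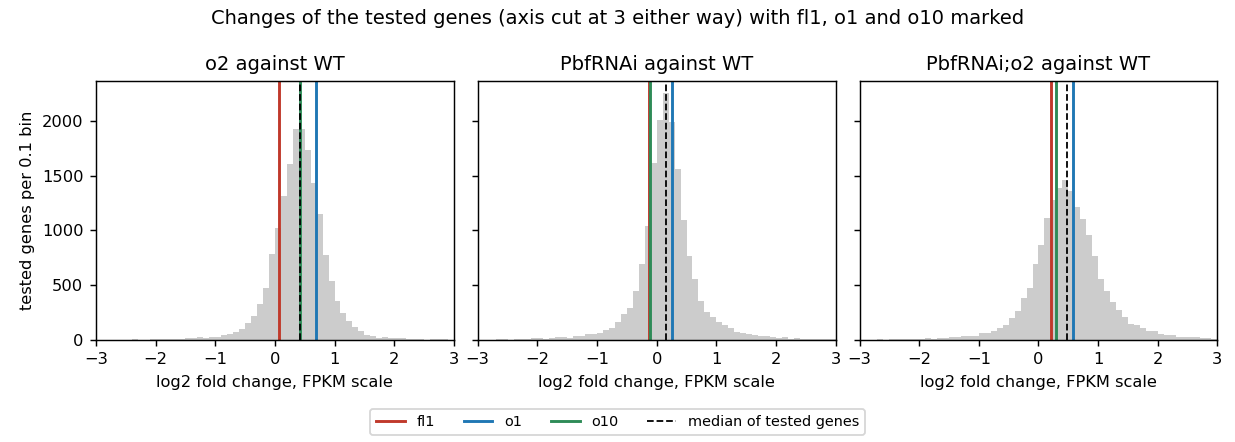
Histograms of the log2 fold change of the 17058 tested genes on the FPKM scale for each mutant genotype against WT, with the values of fl1, o1 and o10 as coloured lines and the median of all tested genes as a dashed line. In o2, o10 (0.42) lies on the median (0.41), o1 (0.69) to its right and fl1 (0.06) to its left.

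Median-of-ratios scaling, which sets the typical gene to the same level in each library, lowered the log2 changes against WT by 0.52 in o2, 0.22 in PbfRNAi and 0.58 in the combined line. The zein list held a smaller share of the FPKM sum without O2, 15.9% to 18.9% in o2 and 11.9% to 15.6% in the combined line against 25.7% to 33.3% in WT, and its part in the shift was not tested. After scaling, o1 differed from WT by 0.19 in o2 (95% interval −0.04 to 0.43, limma adjusted p = 0.25) and by 0.02 in the combined line (−0.22 to 0.25, adjusted p = 0.92). The scaled o1 values of o2 still lay above all those of WT, as did those of 19.8% of tested genes. With library totals taken over the genes that are not zeins, the o1 rise in o2, at 0.35, was still called (limma adjusted p = 0.044) and that in the combined line, at 0.14, was not (limma adjusted p = 0.34).

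For o10 the scaled differences from WT were −0.09 in o2 (limma adjusted p = 0.78), −0.32 in PbfRNAi (adjusted p = 0.22) and −0.27 in the combined line (adjusted p = 0.24). The scaled libraries of o2 and of the combined line lay below all WT libraries, the reverse of their order in FPKM, with folds of 0.939 and 0.828. Of all tested genes 17.5% and 22.8% lay below in the same way. The direction of o10 without O2 thus depends on the scale.

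For fl1 the scaled mean was 41.7 ± 11.9 (SD, n = 3) in WT against 30.3 ± 7.77 in o2, 32.6 ± 9.40 in PbfRNAi and 32.0 ± 7.73 in the combined line, with log2 differences from WT of −0.44, −0.34 and −0.36. None passed the test without the replicate block (limma adjusted p = 0.34, 0.46 and 0.36). Compared with the WT library of the same number, the scaled fl1 value was lower in 9 of 9 mutant libraries, at ratios from 0.701 to 0.820. All 9 ratios use the same 3 WT libraries, so they are not 9 separate observations. How many tested genes were lower in all 9 was not counted. On the FPKM scale the ratio was below 1 in 4 of 9, all 3 of PbfRNAi (0.852 to 0.992) and 1 of o2.

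With scaling and the replicate block together the fl1 value was lower than in WT in o2 (−0.44 ± 0.07, SE; limma adjusted p = 0.0019), in PbfRNAi (−0.34 ± 0.07, adjusted p = 0.0048) and in the combined line (−0.36 ± 0.07, adjusted p = 0.0024), and its interaction was 0.42 ± 0.10 (limma adjusted p = 0.018). These differences and the interaction share the same WT libraries, so they are not separate observations. In that fit 12.7%, 14.7% and 21.3% of tested genes were lower than in WT and 9.02% had a higher interaction. Neither o1 nor o10 was called in any comparison of that fit.

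**Figure D3:**
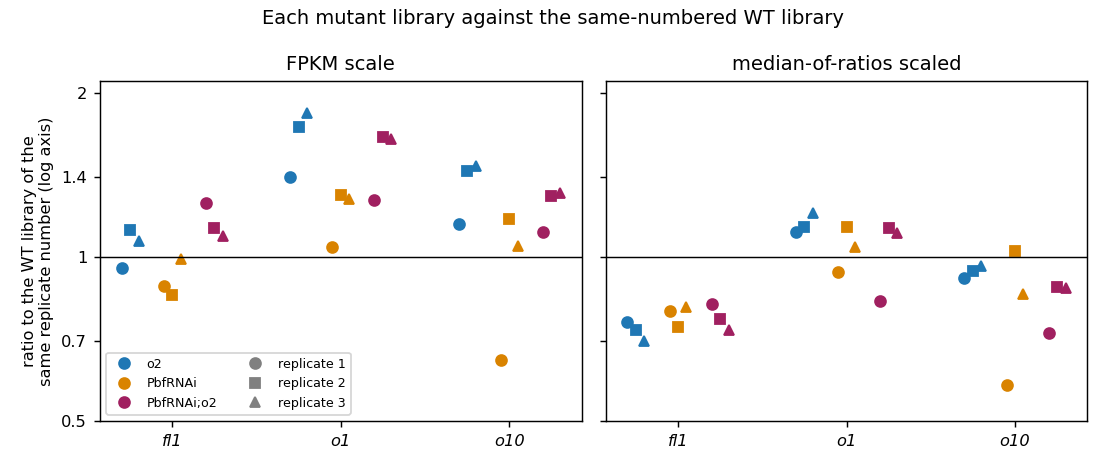
Ratio of each mutant library to the WT library with the same replicate number, on the FPKM scale (left) and after median-of-ratios scaling (right), on a log axis, coloured by genotype with marker shapes for the replicate number. The 9 scaled fl1 ratios lie between 0.701 and 0.820, while those of o1 lie between 0.831 and 1.20 and those of o10 between 0.582 and 1.02.

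Ratios between 2 genes of the same library do not move with its total. The FPKM ratio of o10 to o1 was 1.57, 1.77 and 1.83 in WT, 1.29, 1.47 and 1.47 in o2, 1.37, 1.38 and 1.46 in the combined line, and 0.973, 1.596 and 1.502 in PbfRNAi. Those of o2 and of the combined line lay below all WT ratios, by −0.29 and −0.30 (log2), so that the motor gene stood higher relative to o10 there. The exact permutation p was 0.1 for each, two-sided, which is the smallest that 3 against 3 libraries allow (0.45 adjusted over the 9 ratio tests). PbfRNAi had a mean difference of −0.37 from WT, with a wider spread that overlapped WT (exact permutation p = 0.2). How often other pairs of genes are clear of WT in this way was not counted. The ratios of o1 to fl1 and of o10 to fl1 overlapped WT in all 3 mutant genotypes, with exact permutation p from 0.3 to 0.9. That test takes no account of the replicate numbers. Against the WT library of the same number, the ratio of o1 to fl1 was higher in 9 of 9 mutant libraries, by 0.55 to 0.78 (log2) in o2, 0.24 to 0.61 in PbfRNAi and 0.02 to 0.59 in the combined line. The ratio of o10 to fl1 was higher in 3 of 3 o2 pairs, by 0.27 to 0.46, and in 7 of 9 pairs over all mutant genotypes. The ratio of o10 to o1 was higher in 0 of 9. In each case the 9 pairs share 3 WT libraries and are not separate observations.

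The products of the 3 genes act on zeins, so each level was also set against the zein transcripts of its library, as a description with no test, and o1 and o10 stood above their WT range in every library without O2. On this ratio 81.5% of tested genes in o2 and 87.9% in the combined line were clear of WT in the same way, so that it says little about these genes in particular. Per 10000 FPKM of the zein list, o1 ran from 1.77 to 2.11 in the WT libraries, 4.18 to 5.28 in o2, 1.93 to 2.23 in PbfRNAi and 4.85 to 6.00 in the combined line. For o10 the ranges were 2.77 to 3.73, 5.38 to 7.75, 2.17 to 3.27 and 6.82 to 8.21 in the same order. For fl1 they were 1.499 to 3.25, 2.42 to 5.31, 1.602 to 2.72 and 5.02 to 5.85, so that for fl1 only the combined line was clear of WT. These ratios carry the fall of the zeins. Of the 26 zein models 2 are listed at 0 in all WT libraries and 1 in all combined-line libraries, and what this does to the ratios was not tested.

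**Figure D4:**
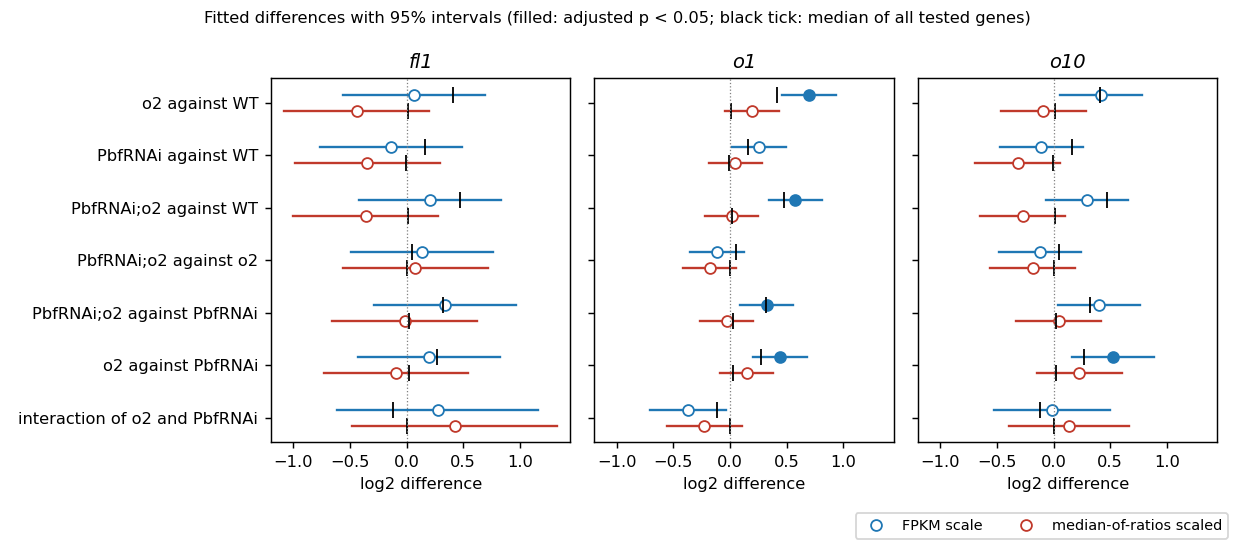
Log2 differences of fl1, o1 and o10 with 95% intervals for the 6 genotype comparisons and the interaction, on the FPKM scale (blue) and after median-of-ratios scaling (red), with filled points for limma adjusted p under 0.05 and a black tick at the median of all tested genes. The filled points are 4 of o1 and 1 of o10, all on the FPKM scale.

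Among 1139 tested genes with a symbol and a mean FPKM of at least 5, those most like each member over the 12 libraries were named by Pearson's r of log2(FPKM + 1), given as a description since the libraries share genotypes and replicate numbers. Nearest to o1 were KAPP, a kinase-associated protein phosphatase (r = 0.97), the histone deacetylase hda102 (0.96), the translation initiation factor eif3 (0.96), the sorbitol dehydrogenase sdh1 (0.96) and the MAP kinase kinase MKK3 (0.95). Their means had the same order of genotypes as o1, for example 45.1 FPKM in WT, 59.9 in PbfRNAi, 84.8 in the combined line and 92.2 in o2 for eif3. Nearest to fl1 were the aquaporins PIP1-1 (r = 0.94) and pip2b (0.92), the kinase gene Pti1b (0.93), MYBE1 (0.91) and the starch synthase ss2 (0.91). Each of these 5 was lowest in replicate 1 of all 4 genotypes. Nearest to o10 were pck2 (r = 0.91), ibp2 (0.90), the basal transfer layer gene bap2 (0.89), a Snf-4 like gene (0.88) and bt2, the small subunit of ADP-glucose pyrophosphorylase (0.88). These 5 were lowest in replicate 1 in 19 of 20 cases, while o10 was so in 3 of 4 genotypes. Between the members r was 0.71 for o1 and o10, 0.55 for fl1 and o10, and 0.11 for fl1 and o1.

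Other genes of the same machinery were counted from lists. Of the 7 myosin models other than o1, 5 were tested, and 4 rose in o2, 2 in PbfRNAi and 3 in the combined line, where 1 fell. Of all tested genes 48.6%, 18.2% and 55.4% rose in the same comparisons, and 2.63%, 5.16% and 4.75% fell. The median log2 changes of the myosin models were 0.57, 0.28 and 0.42 against 0.41, 0.16 and 0.48 for all tested genes. After scaling no myosin was called in o2, 1 was higher in PbfRNAi, and 1 was higher and 2 were lower in the combined line. On that scale 1510, 1934 and 3374 of the 17058 tested genes rose, and 1355, 1645 and 2766 fell. The most abundant myosin, myosin2 model GRMZM2G034362, stood at a mean of 7.88 FPKM in WT, 11.7 in PbfRNAi, 12.7 in o2 and 15.9 in the combined line, below o1 in each. It shares its reference gene with GRMZM2G332687, so the split of reads between the pair is uncertain. Myosin model GRMZM2G113319 stood at 2.28 in WT and 2.39 in o2, and fell to 1.502 in the combined line (−0.38, limma adjusted p = 0.041).

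Of 11 tested models of the actin cytoskeleton, the track of myosin, 9 rose in o2 and none fell, 2 rose and 2 fell in PbfRNAi, and 7 rose and 2 fell in the combined line. The shares of all tested genes that rose were 48.6%, 18.2% and 55.4%, and 2.63%, 5.16% and 4.75% fell. The median log2 changes of the actin models were 0.67, 0.29 and 0.63, against 0.41, 0.16 and 0.48 for all tested genes. After scaling 2 rose and 2 fell in o2, 2 fell and none rose in PbfRNAi, and 4 rose and 3 fell in the combined line. Of the 17058 tested genes 1510, 1934 and 3374 rose on that scale, and 1355, 1645 and 2766 fell. The actin gene act1 went from 140 FPKM in WT to 263 in o2 (log2 change 0.90, limma adjusted p = 0.00014) and 276 in the combined line, with 173 in PbfRNAi, and its rise in o2 was 0.38 after scaling (limma adjusted p = 0.0099). An Actin-7 model, GRMZM2G082484, went the other way, from 52.7 in WT to 23.0 in PbfRNAi (−1.17, limma adjusted p = 0.00036), with 51.5 in o2 and 36.8 in the combined line. Actin model GRMZM2G053299 stood at 89.4, 86.4, 89.6 and 88.1 in WT, o2, PbfRNAi and the combined line, and after scaling it was lower than WT in o2 (−0.57, limma adjusted p = 0.0034) and in the combined line (−0.59, 0.00094).

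The ER-shaping reticulons had 2 tested models. Reticulon GRMZM2G064870 stood at 20.1 FPKM in WT, 22.6 in PbfRNAi, 40.0 in o2 and 43.5 in the combined line. It rose by 0.96 in o2 (limma adjusted p = 0.00010) and by 1.08 in the combined line (adjusted p = 1.2e-05), and after scaling the rises were 0.46 and 0.52 (limma adjusted p = 0.0071 and 0.0014). Reticulon GRMZM2G142409 stood at 14.4, 11.6, 17.9 and 11.97 in the same order and passed no FPKM-scale test against WT. After scaling it was lower than WT in PbfRNAi (−0.51, limma adjusted p = 0.031) and in the combined line (−0.78, 0.0019). Of 18 ER chaperone models 14 rose in o2, 9 rose and 3 fell in PbfRNAi, and 14 rose in the combined line, with median log2 changes of 0.75, 0.46 and 1.12 against 0.41, 0.16 and 0.48 for all tested genes. Of all tested genes 48.6%, 18.2% and 55.4% rose, while 2.63%, 5.16% and 4.75% fell. After scaling 4 rose and 2 fell in o2, 8 rose and 3 fell in PbfRNAi, and 11 rose in the combined line, where 8.85%, 11.3% and 19.8% of all tested genes rose. On that scale 1355, 1645 and 2766 of the 17058 tested genes fell.

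The other opaque genes and zein regulators, 10 models that include o2 and both pbf1 models, split in direction. In o2 5 rose and 3 fell, in PbfRNAi 2 rose and 2 fell, and in the combined line 4 rose and 3 fell, with median log2 changes of 0.56, 0.02 and 0.17. Of all tested genes 48.6%, 18.2% and 55.4% rose and 2.63%, 5.16% and 4.75% fell. After scaling 2 of the 10 rose and 3 fell in o2, 2 rose and 2 fell in PbfRNAi, and 3 rose and 4 fell in the combined line. Among the 17058 tested genes 1510, 1934 and 3374 rose after scaling, and 1355, 1645 and 2766 fell. The summed FPKM of the 10 models ran from 958 to 1087 in WT and from 1643 to 5144 in o2. It ran from 2476 to 2943 in PbfRNAi and from 4859 to 7286 in the combined line. Values of the listed models fl3, ohp1 and ohp2 are not printed here. The naked endosperm gene Nkd2, a zinc-finger regulator, stood at 32.2 FPKM in WT and 41.1 in PbfRNAi, and fell to 14.3 in o2 (−1.11, limma adjusted p = 0.00058) and 16.4 in the combined line (−0.95, adjusted p = 0.00084). Its relative Nkd1 stood at 52.7 and 63.0 in WT and PbfRNAi and rose to 117 in o2 and 161 in the combined line, where the call in o2 was lost after scaling (limma adjusted p = 0.065). Opaque11, a bHLH regulator, went from 62.3 in WT to 46.0 in o2 (−0.42, limma adjusted p = 0.028). The opaque7 gene o7, an acyl-activating enzyme, stood at 13.6, 20.6, 12.4 and 21.4 in WT, o2, PbfRNAi and the combined line, and only its rise in the combined line passed the test (0.64, limma adjusted p = 0.047), a call lost after scaling (0.80). The zein list had 25 tested models, of which 15 fell in o2 and 1 rose, 6 fell in PbfRNAi and 2 rose, and 19 fell in the combined line and 2 rose, with median log2 changes of −1.76, −0.24 and −2.78.

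Markers of the basal transfer layer, bap2 (also betl2) among them, were summed as well. Their 10 models came to 197 to 285 FPKM in WT and 312 to 573 in o2, against 56.8 to 171 in PbfRNAi and 99.2 to 301 in the combined line, which overlapped WT. Of 7 tested models 2 rose in o2, where 48.6% of all tested genes rose. In PbfRNAi 3 fell and in the combined line 1 fell, where 5.16% and 4.75% of all tested genes fell. After scaling none of the 7 was called in o2. On that scale 3 fell in PbfRNAi and 1 in the combined line, where 1645 and 2766 of the 17058 tested genes fell. The summed aleurone markers ran from 87.4 to 96.1 in WT and from 121 to 187 in o2, 96.3 to 168 in PbfRNAi and 150.2 to 260 in the combined line. Of these 3 tested models 2 rose in o2, 1 in PbfRNAi and 1 in the combined line, where 48.6%, 18.2% and 55.4% of all tested genes rose. After scaling none was called in o2 or PbfRNAi. In the combined line 1 then rose and 1 fell, where 3374 of 17058 tested genes rose and 2766 fell. The scaled median log2 changes of the aleurone markers were −0.07, −0.08 and −0.27. The 5 starch genes that mark starchy endosperm summed to 5072 to 6710 in WT and 8081 to 13945 in o2. Their sums were 6080 to 8212 in PbfRNAi and 8055 to 10922 in the combined line. Of these genes 4 rose in o2 and 4 in the combined line, where 48.6% and 55.4% of all tested genes rose. None was called in PbfRNAi. After scaling 1 rose in o2, where 8.85% of all tested genes rose, and none was called in the others. The part of these cell types in the levels of o1, o10 and fl1 was not tested.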

How the data were processed

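The tools named in the submitters' processing notes are TopHat, Bowtie2, Cufflinks and FastQC, with B73 RefGen_v3 as the build. Versions, settings, annotation and any use of strand were not given in the sources used here. As deposited by the authors, the table holds FPKM values for 39448 gene models in 12 libraries, made from ribosome-depleted RNA and paired reads of 125 nt, per the labels' protocols. FPKM moves with the share taken by abundant transcripts and holds no depth. Low values did not fall on whole-read steps, so no counting intervals are given. Whether all replicates are equally independent is not stated, and p-values measure the spread between these libraries.

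Tests used limma (3.58.1, R 4.3.3) on log2(FPKM + 1), for 17058 models at FPKM 1 or more in 3 or more libraries, with 4 genotype means fitted to all 12 libraries, a variance trend and robust moderation. Log2 fold changes on this scale understate those of low genes. Tests were two-sided, adjusted by the Benjamini-Hochberg method over all tested genes of each of 7 comparisons, at a threshold of 0.05. The simulated self-test used the same fit. Tables were handled in python 3.11.15 with pandas 2.3.3, and exact permutation tests with scipy 1.17.1. Libraries with the same replicate number deviated together across genotypes, with correlations of 0.180 to 0.501 over 18 pairs. The 36 pairs of unequal number ran from −0.425 to 0.313. Every negative value was a pair of replicate 1 with replicate 2 or 3. Pairs of replicate 2 with replicate 3 were all positive (0.137 to 0.313), close to same-number pairs of those replicates (0.180 to 0.375). The data thus set replicate 1 apart and do not show that replicates 2 and 3 pair by number. That part of the pairing comes from the shared numbers of the labels alone. Fits with a replicate block are given where they change a call.

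Alternatives were a pseudocount of 0.1, no filter, 3 scalings, the replicate block, only the genotypes compared, each library left out, and no replicate 1 libraries. The members and the gene lists were chosen with earlier results of these data known, and the lists were resolved by symbol through a reference table of another assembly, used for names only, in which 18906 identifiers matched. A planned list of FL1-related proteins could not be resolved by symbol. Named genes are the members, o2 and pbf1, the 5 named genes most like each member, and from each list up to 4 called and 2 not called models, the most abundant first, of which fewer are printed. Promoter and protein sequences were not used here.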

Additional observations from a re-analysis of the deposited data

How the results depend on the processing

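A pseudocount of 0.1 and no filter on low values left the direction and call of all 21 member differences as they were, and each count of genes within 1.5 times. Scaling mattered most. Chosen after seeing the data were the replicate block with each of 2 further scalings, and scaling without the 4 replicate 1 libraries. Why a value moved was not tested, beyond what the scalings remove by construction. Read depth is unknown, and 3 libraries per genotype with a low fl1 value in every replicate 1 limit the fl1 intervals. All values below are log2 differences with limma adjusted p unless called counts.

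For fl1, median-of-ratios scaling gave −0.44 in o2, −0.36 in the combined line, −0.015 for the combined line against PbfRNAi and −0.094 for o2 against PbfRNAi. With the replicate block these 4 values were the same, the first pair called (0.0019, 0.0024) and the others not (0.89, 0.31), while PbfRNAi gave −0.34 and the interaction 0.42, both called. Scaling to genes outside the 100 most abundant gave −0.52, −0.53, −0.14 and −0.13, and −0.014 for the combined line against o2. With the replicate block these were again the same, the first pair called, and PbfRNAi (−0.39, 0.0024) and the interaction (0.38, 0.030) were called too. Scaling to the genes outside the zein list gave −0.29 in o2 and −0.23 in the combined line, with the replicate block called in o2 (0.040) and in PbfRNAi (−0.35, 0.017), not in the combined line (0.062). Scaled without the 4 replicate 1 libraries, o2 (−0.47, 0.0016), PbfRNAi (−0.36, 0.0071), the combined line (−0.40, 0.0026) and the interaction (0.42, 0.021) were called, with −0.044 and −0.11 for the combined line and o2 against PbfRNAi. Unscaled, the combined line against PbfRNAi was called with the replicate block (0.34) and without the 4 replicate 1 libraries (0.27).

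For o1, the calls in o2 (0.19), the combined line (0.017) and o2 against PbfRNAi (0.15) were lost with median-of-ratios scaling, and the combined line against PbfRNAi became −0.031. These values were the same, and not called, with the replicate block. Outside the 100 most abundant genes they were 0.11, −0.16, 0.11 and −0.16, with or without the replicate block, which called the combined line against o2 (−0.27, 0.049). Scaling to the genes outside the zein list kept the call in o2 (0.35, 0.044) and o2 against PbfRNAi, and lost the combined line against WT (0.14) and PbfRNAi (0.10), likewise with the replicate block. Scaled without the 4 replicate 1 libraries, none was called (0.22, 0.15, 0.10 and 0.038 in the order above). Unscaled without those libraries, PbfRNAi (0.35) and the interaction (−0.46) were called, and the combined line against PbfRNAi (0.32) was lost when only those genotypes were fitted.

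For o10, median-of-ratios scaling gave −0.090 in o2, −0.27 in the combined line, 0.23 for o2 against PbfRNAi (call lost) and 0.13 for the interaction, the same and not called with the replicate block. Outside the 100 most abundant genes these were −0.17, −0.45, 0.19 and 0.088, and −0.084 for the combined line against PbfRNAi. With the replicate block they were the same, and the combined line was then called lower than WT (0.026). Scaling to the genes outside the zein list gave −0.15 in the combined line and 0.11 for the interaction, with or without the replicate block, and 0.39 (0.092) for o2 against PbfRNAi. Scaled without the 4 replicate 1 libraries, o2 gave −0.071, the combined line −0.18, and −0.088 and 0.024 against PbfRNAi. Unscaled without those libraries, o2 (0.53) and the combined line (0.37) were called and PbfRNAi gave 0.15 (0.20). Fitting only the genotypes compared called o2 (0.42) and the combined line (0.29) and lost o2 against PbfRNAi (0.52). The replicate block called o2 (0.42) and the combined line against PbfRNAi (0.40), and beside these and the fl1 call above it changed no other unscaled call of the members.

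Leaving out each library in turn, fl1 ran from −0.15 to 0.35 in o2, −0.35 to 0.10 in PbfRNAi, −0.015 to 0.37 in the combined line, −0.14 to 0.30 for the combined line against o2, −0.037 to 0.48 for o2 against PbfRNAi and −0.0082 to 0.49 for the interaction, never called. For o1 the range was 0.61 to 0.79 in o2 and 0.50 to 0.67 in the combined line, always called, 0.17 to 0.35 in PbfRNAi and 0.27 to 0.36 for the combined line against PbfRNAi. For o10 it was 0.36 to 0.50 in o2, −0.28 to 0.11 in PbfRNAi, 0.26 to 0.34 in the combined line, 0.18 to 0.57 and 0.30 to 0.70 for the combined line and o2 against PbfRNAi, and −0.24 to 0.16 for the interaction.

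Counts of genes called over the table were 8730 in o2, 3978 in PbfRNAi, 10259 in the combined line, 3793 and 7657 for the combined line against o2 and PbfRNAi, 7643 for o2 against PbfRNAi and 1590 for the interaction. In o2 the 3 scalings gave 2865, 2944 and 3453, and with the replicate block 4606, 4679 and 5044. In the combined line the scalings gave 6140, 6593 and 6114, and against PbfRNAi 4793, 4837 and 5065. The replicate block gave 2513 for the interaction, 2781, 2824 and 2387 with the scalings, and 5882 for the combined line against o2 outside the 100 most abundant genes. Without the 4 replicate 1 libraries the counts were 8343 in PbfRNAi (7223 scaled), 8444 for the combined line against o2 (8248 scaled), 11690 for o2 against PbfRNAi and 7621 for the interaction (6064 scaled). Leaving out single libraries gave 2637 to 4640 in PbfRNAi, the fewest without WT replicate 2, and 1055 to 2179 for the interaction, the fewest without o2 replicate 3. Of the genes called, 94.9% were higher in o2, 77.9% in PbfRNAi and 92.1% in the combined line, against 52.7%, 54.0% and 55.0% with median-of-ratios scaling, 38.2%, 47.6% and 35.4% outside the 100 most abundant genes and 73.9%, 53.8% and 68.5% over genes that are not zeins.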
